A study of Mus musculus with 8 samples.

Results

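The transcription factor SOX10 was mapped by chromatin immunoprecipitation sequencing (ChIP-seq) in a mouse melanocyte line, and all peaks of its 2 libraries are described here by position: 6409 in replicate 1 and 9613 in replicate 2, together 16022 of the 311378 peaks in the 6 lists analysed. The other 4 lists hold the histone marks H3K27ac and H3K27me3 in the same line, with 2 libraries each, and serve only for comparison. ChIP-seq reads the DNA that an antibody pulls down from crosslinked, sheared chromatin. A peak is a place where these reads, counted as tags, pile up above the level in an input library made without antibody. Both SOX10 libraries came from independent experiments, per the labels, and were set against 1 input. The cells were melan-Ink4a-Arf-1, an immortalised line from embryonic skin of mice homozygous for the allele Cdkn2a tm1RDp. The labels also give the name melan-a for it. All samples, inputs included, shared that genotype and a medium with 200 nM of a phorbol ester (12-O-tetradecanoylphorbol 13-acetate) and 200 pM cholera toxin, and were fixed with 1% formaldehyde. The lists therefore describe 1 line under 1 culture condition, with no cells lacking SOX10 for comparison.

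SOX10 is a transcription factor of the SOX family, whose members bend DNA through a high-mobility-group domain that reads short A- and T-rich sites. It is needed to form the neural crest lineages of melanocytes and glia, and in melanocytes it acts with the regulator MITF on pigment genes. Factors of this kind often bind far from gene starts, at enhancers, and several bound enhancers can lie around 1 gene. Places of binding are given in the mm9 build. A genome or gene annotation of that build was not used here, so the genes around the sites and the sequence under them were not analysed. As each antibody has 2 libraries, an exact permutation test across libraries could not pass 0.05, and values of both replicates stand side by side without a test. All intervals are 95% intervals of the counts alone: they hold no error between experiments.

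SOX10 tags were few and spread over many small peaks. The libraries had 14170747 and 14592541 tags in replicates 1 and 2, and kept 6440395 and 8985699 after removal of duplicates. Duplicates took 55% and 38% of all tags, and the input kept 12059585. The 4 histone libraries kept between 44416913 and 71987481. Peaks held 2.66% of the kept SOX10 tags in replicate 1 and 3.86% in replicate 2. There were 995 and 1069.8 peaks per 1000000 kept tags, so the longer list came with more kept tags at nearly the same rate. A median peak held 21 tags and 29 tags, and 10% of peaks held at most 11 and 15, so the weakest peaks rest on very few tags.

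Binding was found again in the other replicate for most peaks of the smaller list and fewer of the larger one. A peak was counted as shared where it overlapped a peak of the other list by at least 1 bp. That held for 4191 peaks of replicate 1, which is 65.4% of its list, and for 4189 peaks of replicate 2, which is 43.6% of its list. Joined, they formed 4159 shared regions. Of these, 4098 held 1 peak of each replicate, 31 held several of replicate 1 and 29 several of replicate 2, and 1 held several of both, so the replicates hardly ever split a site differently.

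At the same strength a peak of replicate 1 was found again more often than a peak of replicate 2. Strength is given by the score of the peak caller, the negative log10 of its p multiplied by 10, which is 50 at the cutoff. For scores from 50 to 60 the shared percentage was 42.9% (Wilson interval 40.6 to 45.2%) in replicate 1 and 18.6% (17.1 to 20.3%) in replicate 2. For scores from 100 to 150 it was 90.8% (88.8 to 92.5%) and 59.4% (57.1 to 61.7%). From 150 up, 672 of 679 peaks of replicate 1 and 1351 of 1488 of replicate 2 were shared. The same score thus stood for different degrees of recovery in the 2 libraries. Their kept tags and list lengths also differ, and the part of these was not tested.

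The strongest peaks of one list were nearly all present in the other, but were not always among its strongest. Of the 500 strongest peaks of each list, 99.2% in replicate 1 and 98.2% in replicate 2 overlapped some peak of the other list. Of the same peaks 299, or 59.8% (55.4 to 64.0%), overlapped one of the other list's 500 strongest, a shorter list that cannot give more overlaps than the full one. That percentage stayed near this level for longer lists of equal size, with 60.4% and 60.5% for the strongest 1000, 56.5% and 56.4% for the strongest 4000, and 55.3% and 55.1% when both lists held 6409 peaks. The authors' false discovery rate (FDR) changed the picture most. With peaks of at most 1% FDR in both lists, 31.9% of replicate 1 and 70.9% of replicate 2 were shared, the reverse order. With 1398 shared regions left, these percentages mean that replicate 1 then had the longer list. The FDR did not always fall as the score rose. In replicate 1, peaks scoring 302 and 275 had FDRs of 2.30% and 1.63%, and one scoring 208 had 0.660%. In replicate 2, peaks scoring 379.5 and 349 had 1.37% and 1.05%, and those scoring 336 and 324 had 0.930% and 0.860%.

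**Figure D1:**
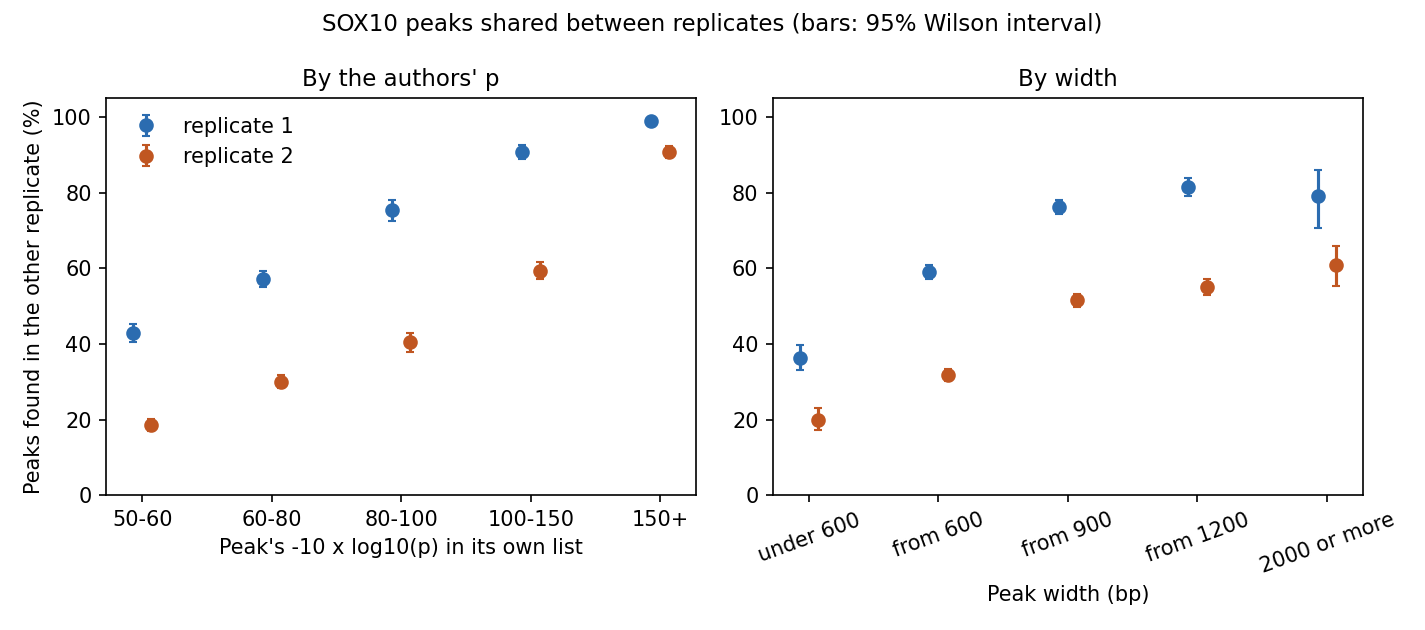
Percentage of SOX10 peaks of each replicate that overlap a peak of the other replicate by at least 1 bp, by the peak's score (left, negative log10 of p multiplied by 10) and by its width in bp (right, each class running up to the next label); points are 1 library each and bars are 95% Wilson intervals. Replicate 1 lies above replicate 2 in every class, from 42.9% against 18.6% in the weakest score class to 90.8% against 59.4% for scores from 100 to 150.

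Shared peaks were wider and held more tags than single-replicate peaks in both libraries. Their median width was 954 bp against 734 bp in replicate 1 and 1045 bp against 890 bp in replicate 2, a ratio of 1.30 and 1.17. Median tags were 24 against 15 in replicate 1 and 36 against 24 in replicate 2. The middle 80% of widths overlapped widely, with 634 to 1429 bp for shared and 533 to 1178 bp for single-replicate peaks of replicate 1, and 720 to 1668 bp and 595 to 1428 bp in replicate 2. The whole range was thus shifted up in shared peaks. By width class, the shared percentage in replicate 1 went from 36.3% under 600 bp to 81.5% between 1200 and 2000 bp. From 2000 bp up it was 79.2% (70.6 to 85.9%). In replicate 2 the shared percentage went from 19.9% under 600 bp to 60.8% from 2000 bp up. Shared peaks made up 74.2% of all tags in peaks in replicate 1 and 54.0% in replicate 2. The median fold enrichment at the summit, the authors' ratio of ChIP tags to the input background, was 1.18 and 1.36 times as high in shared peaks. Sharing also depends on width by its own definition, since wide peaks reach 1 bp of overlap sooner than narrow ones.

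The typical SOX10 peak was about 900 bp wide, with its summit in the middle. The middle 50% of widths ran from 687 to 1092 bp in replicate 1 and from 770 to 1199 bp in replicate 2. The narrowest peaks were 316 and 279 bp and the widest 6223 and 7706 bp. Peaks of 2000 bp or more were 106, or 1.65% of the list, in replicate 1 and 329, or 3.42%, in replicate 2. Tags rose with width, with a Spearman correlation across peaks of 0.841 and 0.851, but fold enrichment hardly did, with -0.105 and -0.125. These correlations describe peaks of 1 library each, which share its depth and input. Peaks under 600 bp had a median fold of 10.5 and 9.02, and those of 2000 bp or more had 6.46 and 6.33. The median summit lay at 50.0% of the width in both lists, with no lean to either side. The middle 50% of summits lay between 40.4 and 60.2% of the width in replicate 1 and between 41.1 and 59.0% in replicate 2.

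Where both replicates had a peak, they placed its summit closely. Among the 4098 shared regions with 1 peak of each replicate, the summits lay a median of 49 bp apart. They were within 50 bp in 51.0%, within 100 bp in 74.5% and within 200 bp in 88.7%. The median signed shift was 1 bp, so neither replicate sat to one side. Sorted by tags into 4 classes of equal size, the median distance shrank from 59 bp in the class with the fewest tags to 43 bp in that with the most. The tail did the opposite: 98.2% of summits lay within 500 bp of each other in the class with the fewest tags and 93.3% in that with the most. The overlap covered a median of 74.1% of the joint stretch of both peaks, and only 21 pairs shared under 50% of the shorter peak. Replicate 2 had the wider peak in 65.2% of pairs, with a median width ratio of 1.11.

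Tag counts of paired peaks followed the number of kept tags. A peak of replicate 2 held a median of 1.46 times the tags of its partner in replicate 1. As tags per 1000000 kept tags the median ratio was 1.05, and 80% of pairs lay between 0.689 and 1.61. The Spearman correlation of tags across pairs was 0.771 and that of widths 0.518, both over 4098 pairs that also share the input. The rank order of tags was thus recovered more closely than that of widths. The ratios spread to a like degree, as 80% of pairs had a width ratio between 0.777 and 1.66. Among regions with at least 50 tags in a replicate, the largest differences in favour of replicate 2 were on chromosome 5 at 143578272 to 143585977 (42.1 against 26.6 tags per 1000000), chromosome 9 at 61216433 to 61221011 (21.8 against 6.99) and chromosome 6 at 113025280 to 113029868 (24.1 against 9.47). All 3 were wide, between 4579 and 7706 bp. In favour of replicate 1 they were the region on chromosome 17 at 39979541 to 39985980 (779 against 739 tags per 1000000) and those on chromosome 2 at 98502197 to 98503364 (99.4 against 74.3) and 98506204 to 98507682 (106 against 82.8). These 3 had folds of at most 3.25 in both replicates.

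**Figure D2:**
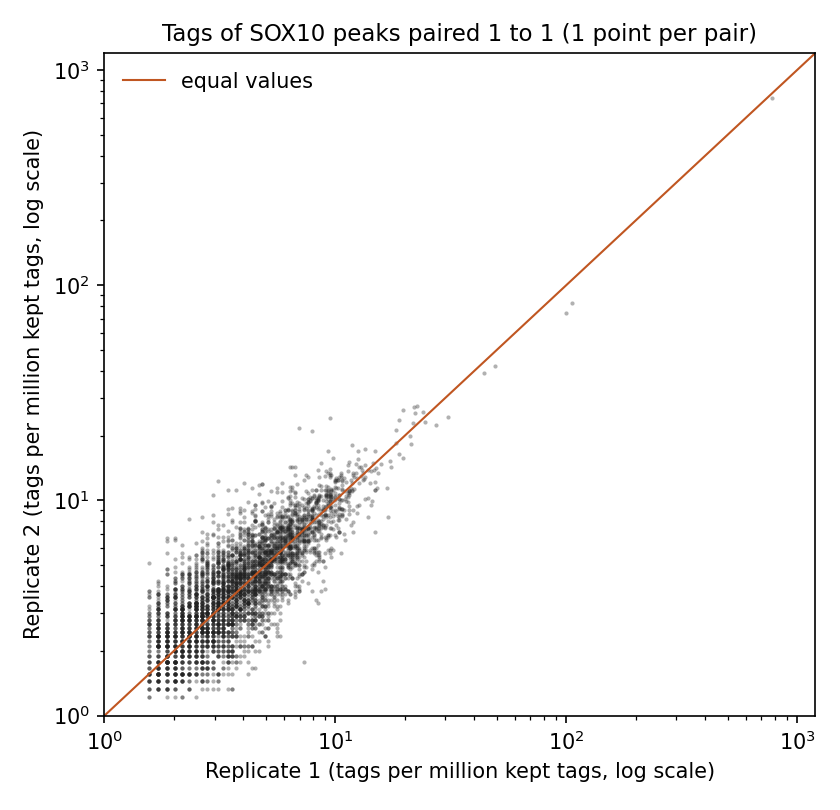
Tags per 1000000 kept tags in replicate 1 (x axis, log scale) and replicate 2 (y axis, log scale) for the 4098 SOX10 peaks paired 1 to 1; each point is a pair and the line marks equal values. The cloud follows the line with a median ratio of 1.05, and the lone point at the top right is the place on chromosome 17 with 779 and 739 tags per 1000000.

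Of the 10 shared regions with the most SOX10 tags, 6 had a low fold enrichment. The input background in or around these 6 was thus high too. The largest lay on chromosome 17 at 39979541 to 39985980, with 5018 tags in replicate 1 and 6636 in replicate 2 but a fold enrichment of only 1.82 and 2.32. A group on chromosome 2 between 98502197 and 98507682 followed, with 3 shared regions of 316 to 683 tags in replicate 1 and 379 to 744 in replicate 2, at folds from 2.02 to 3.44. Chromosome 9 held another 2 near its start, at 3015084 to 3017766 and at 3035523 to 3036783, with folds of 4.72 and 3.90 and of 2.96 and 2.61. All 6 overlapped an H3K27me3 region of both replicates and none an H3K27ac region. How often all shared regions overlap either mark is not given here, so the overlaps of these 10 regions cannot be set against the rest. The other 4 of the 10 regions with the most tags overlapped H3K27ac regions and no H3K27me3 region, and had folds from 5.47 to 13.7. On chromosome 5 these were 143578272 to 143585977 and 58105005 to 58111020, on chromosome 17 it was 34255135 to 34260404 and on chromosome 19 it was 5843466 to 5850627. Several of them were also among the widest peaks, with 7706 bp on chromosome 5 in replicate 2, and with 5930 bp on chromosome 5 and 5218 bp on chromosome 17 in replicate 1. In all, 8 peaks of replicate 1 and 9 of replicate 2 had at least 150 tags and a fold under 4, and held 4.37% and 2.79% of the tags in peaks. Without them the shared percentages were 65.3% and 43.5%.

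Peaks found in a single replicate seldom lay within 1 kb of a peak of the other list. Of the 2218 such peaks of replicate 1, 96 (4.33%) lay within 1 kb of a peak of replicate 2, and of the 5424 of replicate 2, 181 (3.34%) lay within 1 kb of a peak of replicate 1. Within 10 kb it was 23.4% and 18.0%, and within 100 kb 72.0% and 63.6%. The median distance to the nearest peak of the other list, edge to edge, was 37.6 kb and 58.5 kb. Within that other list, the median distance from a summit to the nearest other summit was 32.5 kb (replicate 2) and 50.7 kb (replicate 1). The 3 with the highest scores in replicate 2 had folds of 28.5, 24.6 and 15.6, where 10% of shared peaks of that replicate had over 21.1. They lay on chromosome 10 at 111361989 to 111363042 (66 tags, 122 kb from the nearest peak of replicate 1), chromosome 18 at 82706952 to 82708247 (64 tags, 6.39 kb) and chromosome 7 at 127300105 to 127301746 (68 tags, 362 kb). In replicate 1 the strongest lay on chromosome 9, from 35112305 to 35113386, with 380 tags at a fold of 4.83. The next were 141533394 to 141534455 of chromosome 2, with 32 tags at a fold of 23.7, and 47895962 to 47897504 of chromosome 14, with 43 tags at a fold of 12.5. All 6 held more tags than the median peak of their list.

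SOX10 sites lay far apart and unevenly. From one shared region to the next on the same chromosome, the median distance between summits was 199 kb and the mean 610.4 kb, and 80% of distances lay between 14.6 kb and 1577 kb. In the single lists the medians were 129.5 kb and 78.2 kb. The mean exceeded the median by a factor of 3.07 among shared regions, 3.08 in replicate 1 and 3.40 in replicate 2, so short steps and long empty stretches occurred in both lists alike. With scores of at least 100 in both lists, 1250 shared regions were left and their median distance was 816 kb. Fewer regions lie further apart whatever limit removes them, so this value does not relate spacing to strength.

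Close neighbours were a minority. Of the shared regions on the numbered chromosomes and X, 564 of 4157, or 13.6% (12.6 to 14.6%), had another within 10 kb, and 310 (7.46%) within 5 kb. Within 100 kb it was 56.7%. In the single lists, 18.7% and 25.2% of peaks had a neighbour within 10 kb. Joined in steps of at most 10 kb, shared regions formed 245 pairs, 23 groups of 3 and 1 group of 5, while 3593 stood alone. The group of 5 spanned 27.8 kb on chromosome 3 at 51287386 to 51315207, with 158 tags in replicate 1 and 234 in replicate 2. H3K27ac peaks were packed far more tightly in their lists, with median distances of 1.22 and 1.24 kb and 92.9% and 93.0% with a neighbour within 10 kb, and H3K27me3 peaks had medians of 3.59 and 3.32 kb. Depth, tag distance and list length differ between the antibodies, so these set the lists side by side only.

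**Figure D3:**
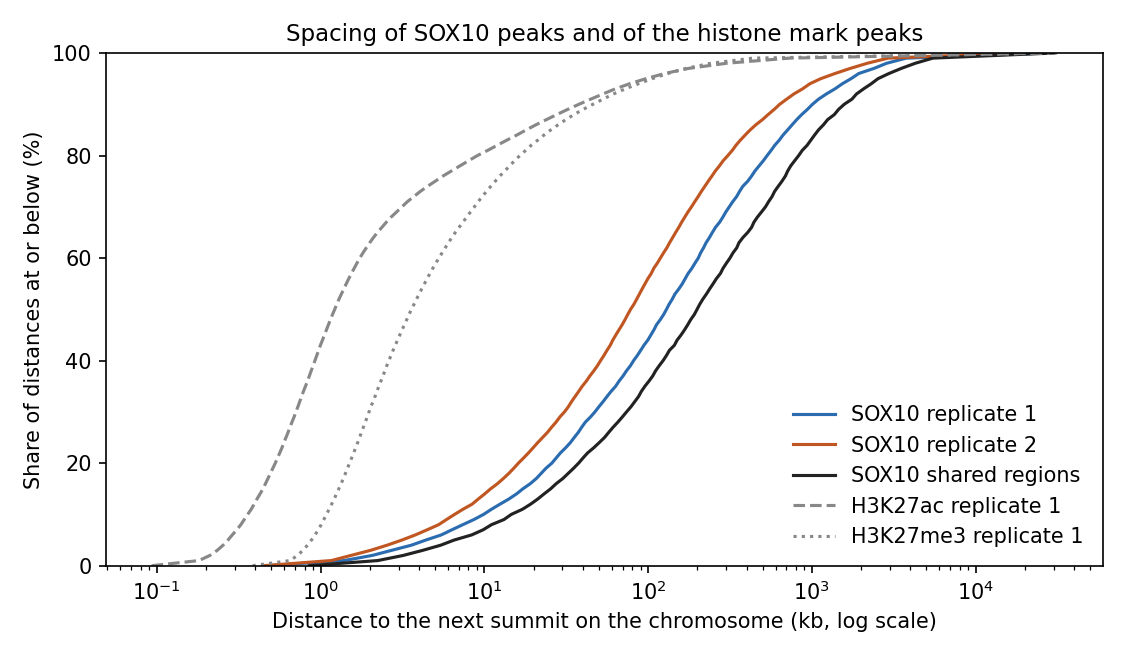
Cumulative percentage (y axis) of distances from a peak's summit to the next on the same chromosome (x axis, kb, log scale), for both SOX10 lists, the shared SOX10 regions and 1 list of each histone mark. The median distance is 129.5, 78.2 and 199 kb for the 3 SOX10 curves and 1.22 kb for H3K27ac.

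Shared regions with a close neighbour were slightly wider and held more tags than isolated ones. Regions with a neighbour within 10 kb had a median width of 1191 bp, and those whose nearest neighbour was over 1 Mb away had 1034 bp. Their median tags were 25 and 39 in replicates 1 and 2, against 21 and 30 at the 173 regions that stood alone by over 1 Mb. The median fold enrichment ran the other way by a small step, with 11.1 in both replicates near neighbours and 11.9 and 12.0 for the lone regions. An isolated SOX10 site was thus no weaker by fold in these lists.

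Across the numbered chromosomes SOX10 binding was concentrated in part of the megabases. In 2381 windows of 1 Mb the shared regions averaged 1.71 per window, with a variance 2.49 times the mean, where 3.08 and 4.17 were found for the single lists. No shared region fell in 907 windows (38.1%), while 250 windows (10.5%) with 5 or more held 38.6% of them. The counts of the 2 libraries had a Pearson correlation of 0.860 at this scale, in part because both include the shared peaks. Peaks of single replicates correlated with each other too, at 0.471, and with shared regions at 0.443 for replicate 1 and 0.593 for replicate 2. These correlations run over windows of 2 libraries with 1 input and are given as a description.

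Windows rich in H3K27ac held more SOX10. In the 735 windows without an H3K27ac region of both replicates, shared SOX10 regions averaged 0.244, and 80.3% of these windows had none. The mean was 0.923 with 1 to 5 H3K27ac regions, 1.94 with 6 to 15, 3.02 with 16 to 30 and 4.04 with over 30, where 3.38% of windows had no SOX10. Per 100 H3K27ac regions there were 36.3 shared SOX10 regions in windows with 1 to 5 of them and 7.05 in windows with over 30. As windows were grouped by the same H3K27ac count that divides this ratio, part of its fall is built in. Over all 2381 windows the count of shared SOX10 regions had a Spearman correlation of 0.740 with H3K27ac (Pearson 0.606) and of 0.622 with H3K27me3 (Pearson 0.404). Single-replicate peaks followed H3K27ac as well, with 0.542 (0.474) in replicate 1 and 0.769 (0.646) in replicate 2, so the relation was neither limited to shared sites nor to acetylation.

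**Figure D4:**
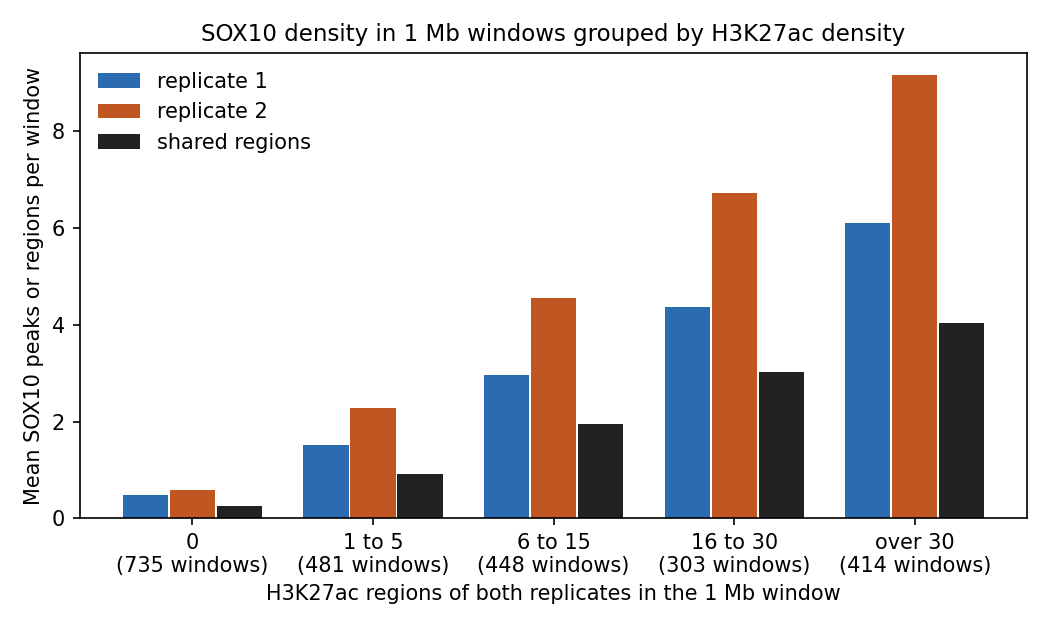
Mean number of SOX10 peaks of each replicate and of shared regions (y axis) in 1 Mb windows of the numbered chromosomes, grouped by how many H3K27ac regions of both replicates the window holds (x axis, with the number of windows); bars are means, drawn without an error. The mean of shared regions rises from 0.244 with no H3K27ac region to 4.04 with over 30.

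The densest 500 kb windows held 9 to 12 shared regions. On a fixed grid, 124 of 2083 occupied windows held 5 or more. The richest was on chromosome 13 from 23500000 to 23999999, with 12 shared regions between 23524041 and 23854592, at folds from 6.17 to 13.2 (mean of both replicates) and a median step of 13.4 kb. It held 15 peaks of replicate 1, 24 of replicate 2 and 23 H3K27ac regions. Chromosome 6 from 17000000 to 17499999 followed with 11 shared regions, folds from 6.29 to 23.8 and 77 H3K27ac regions, and chromosome 5 from 92500000 to 92999999 with 10, folds from 6.29 to 22.1 and 37 H3K27ac regions. The other two were on chromosome 14, from 70500000 and from 120500000, with 9 shared regions each. These last held the strongest single sites of the 5 windows, with mean folds up to 34.1 at 70953477 to 70955345 and 41.1 at 120672763 to 120674379. By mean fold, the window with the most sites was the one of these 5 whose strongest site was weakest. Its highest tag counts, 42 and 68 in replicates 1 and 2, were close to the 42 and 72 of the chromosome 5 window.

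Long stretches lacked shared SOX10 regions, and they were poor in the histone marks as well. On the numbered chromosomes 45 stretches of over 5 Mb had none, 306 Mb in all or 12.7% of the length between the first and last peak of any list. In them H3K27ac regions of both replicates had a density of 1.67 per Mb, against 17.2 per Mb elsewhere, and H3K27me3 regions 1.74 against 14.2. Single-replicate SOX10 peaks were thinner there too, with 0.347 against 0.988 per Mb in replicate 1 and 0.543 against 2.47 in replicate 2. The longest was on chromosome 14 at 85039694 to 100760557, 15.7 Mb with 5 single-replicate peaks of each replicate and 2 H3K27ac regions. The next on a numbered chromosome was on chromosome 7 at 39039969 to 51143795, 12.1 Mb with 2 peaks of each replicate, 20 H3K27ac regions and 21 H3K27me3 regions, so marks were present there without shared SOX10. In the single lists the longest distance from one summit to the next on a numbered chromosome was 11.8 Mb in replicate 1 and 9.25 Mb in replicate 2.

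Among the numbered chromosomes SOX10 density varied less than H3K27ac density. Shared regions had 1.31 per Mb on chromosome 1 (Poisson interval 1.15 to 1.48), the lowest. The highest was chromosome 11 with 2.16 per Mb (1.91 to 2.44), a factor of 1.65. The factor between highest and lowest was 2.00 with scores of at least 100 in both lists and 2.06 with an FDR of at most 1%. Next to the highest came chromosome 18 with 2.12 (1.83 to 2.45), chromosome 19 with 2.06 (1.71 to 2.47) and chromosome 2 with 2.03 (1.82 to 2.25), whose intervals overlap that of chromosome 11. Both libraries put chromosome 1 last, at 2.01 and 2.98 peaks per Mb, and their densities correlated with a Pearson r of 0.930 over 19 chromosomes. H3K27ac density spread more, by a factor of 2.75 and 2.80, and its r with that of shared SOX10 regions was 0.464 and 0.452. The shared percentage was highest on chromosome 18 in both lists, with 186 of 248 peaks and 190 of 397 (47.9%), and lowest on chromosome 16 in replicate 1 (61.2%) and chromosome 8 in replicate 2 (40.2%).

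The X chromosome held few SOX10 sites, but in the full lists its depletion was far smaller than that of the histone marks. Depth and list length differ between the antibodies. X had 75 peaks in replicate 1, 121 in replicate 2 and 43 shared regions. That is 0.467, 0.753 and 0.268 per Mb, and the median numbered chromosome had 5.53, 5.25 and 6.41 times as much. For H3K27ac the same factor was 51.8 and 42.6, and for H3K27me3 118 and 164. With scores of at least 100 in both lists the density of shared regions on X was 0.0469 of the median, from only 4 regions on X (Poisson interval 0.0128 to 0.120), against 0.156 (0.113 to 0.210) for all 43. With an FDR of at most 1% it was 0.130 from 12 regions (0.0669 to 0.226). As fractions of the median, the full H3K27ac lists had 0.0193 and 0.0235 on X, inside the SOX10 interval for scores of at least 100. The histone lists were not limited by score. X peaks were narrower, with a median of 717 and 766 bp against 887 and 964 bp, and held fewer tags, 14 and 19 against 21 and 29. Their median fold was not lower, at 11.9 and 10.0 against 10.4 and 9.04, while the shared percentage was 57.3% (46.1 to 67.9%) against 65.5% and 36.4% (28.3 to 45.2%) against 43.7%. The intervals for X include the values of the numbered chromosomes. The X region with the most tags lay at 11582542 to 11585087, with 63 and 99 tags and folds of 14.2 and 15.1, and another of the 3 fullest lay near it at 11646084 to 11647263. The longest stretch of X without a shared region ran over 30.1 Mb, from 103271679 to 133363139. Since the lists hold peaks only, the tag level of X as a whole in these libraries and the input was not analysed here.

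Chromosome 6, chosen after its values were seen, had the widest and fullest SOX10 peaks in both libraries. Its median width was 995 bp in replicate 1, against medians of 827 to 954 bp on the other 18, and 1112 bp in replicate 2, against 927 to 998 bp. Its median tags were 26 against 18 to 23, and 37 against 26 to 32.5. Its median fold, 9.25 and 8.44, was near the lower end of the others (9.18 to 11.3 and 8.16 to 10.0, with medians of 10.5 and 9.03). Its density of shared regions, 1.89 per Mb, was inside the range of the others. The same chromosome had the highest density of H3K27me3 peaks, 82.7 and 83.3 per Mb where the medians were 27.2 and 23.5. Whether the 2 go together was not tested.

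**Figure D5:**
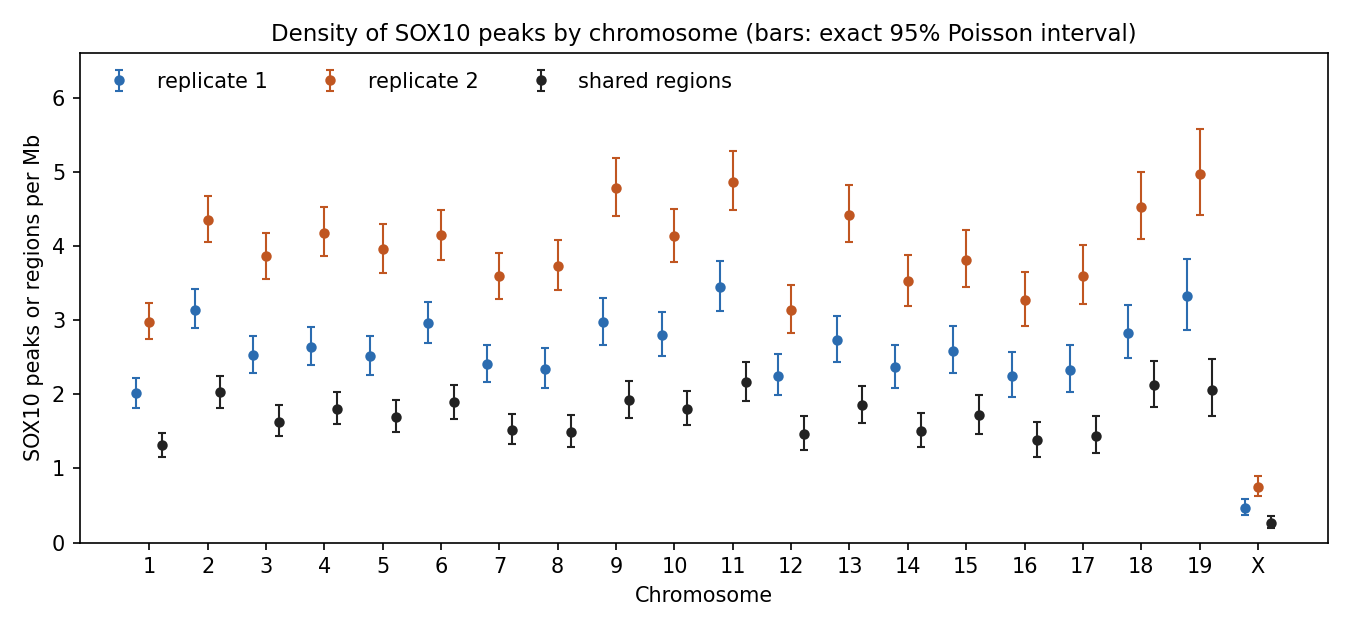
SOX10 peaks per Mb of each replicate and shared regions per Mb (y axis) by chromosome (x axis), over the length between the first and last peak of any list; bars are exact 95% Poisson intervals of the counts. Shared regions range from 1.31 to 2.16 per Mb on the numbered chromosomes and reach 0.268 on X.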

How the data were processed

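ChIP-seq peak lists of 2 SOX10 and 4 histone mark libraries of 1 mouse melanocyte line were used, grouped by the antibody and replicate number in the sample titles. The 2 inputs enter only through the authors' peak scores. The authors found peaks per library with MACS 1.4.2 at a p cutoff of 1e-05, with at most 1 tag kept per position and the deeper library scaled down, per the file headers. Fragment shifts were set from 225 and 212 bp for SOX10, whose local background came from input windows of 1000 and 10000 bp, per the file headers. Positions are mm9 (submitters' processing notes). The aligner that placed the tags is not given in the sources here, so how it treated repeats is not known.

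The deposited tags are whole-number counts per peak. The deposited -log10 p is multiplied by 10, the deposited fold is a ratio of ChIP to input background at the summit, and the deposited FDR is in percent. In 1 SOX10 list a spreadsheet error replaced the title of the p column, which was identified by its place and range.

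Overlaps, distances and densities were computed with Python 3.11.15, numpy 2.4.6, pandas 2.3.3 and scipy 1.17.1, after tests of the functions on simulated peaks. The score of a peak is its deposited value, unchanged. Chromosome length is the stretch from the first to the last peak of any list. A shared region spans its peaks of both replicates, with the summit of the peak of highest fold. Named regions were the 10 with most tags, the 5 densest windows, the longest empty stretches, the 3 strongest single-replicate peaks per list, the 3 widest peaks per list and the 3 largest tag differences in each direction. Members and lists were chosen with earlier results of these data known. Alternatives changed the overlap, the p or FDR limit, the list, the distance or the length. No motif search was run, as no genome of the build was used here.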

Additional observations from a re-analysis of the deposited data

How the results depend on the processing

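A median peak held 21 and 29 tags, so weak peaks rest on few tags. The part of the number of kept tags in the list lengths was not tested. Of 86 values under alternatives for 11 results, 39 stayed within the spread between replicates (or the Wilson interval, or a factor of 1.5 for counts), 47 moved, and no width or tag ratio changed direction. The order of the 2 shared percentages did change, with an FDR of at most 1%. That limit left replicate 1 with the longer list. Why it kept fewer peaks of replicate 2 was not tested. With summits at most 100 bp apart, 48.4% and 32.2% of the lists were shared, the median step was 288 kb, X had 0.143 of the median density, and shared over single-replicate ratios were 1.48 for tags and 1.14 for width. With scores of at least 100, 1250 regions remained from 76.0% and 38.9%, of 1276 bp, with steps of 816 kb, 5.12% with a neighbour within 10 kb, 0.0469 on X and ratios of 1.34 and 1.08. With an FDR of at most 1%, it was 1398 regions from 31.9% and 70.9%, 1218 bp, 767 kb, 5.65%, 0.130, and 1.20 and 1.07. Neighbours within 5 and 50 kb were 7.46% and 40.6%. Leaving out 1 replicate, all peaks of the other had median widths of 883 to 961 bp, steps of 78.2 to 129.5 kb, 18.7 to 25.2% with a neighbour within 10 kb and 0.181 to 0.190 on X. Shared percentages could not be formed that way. The longest empty stretch of a numbered chromosome ranged from 9.25 to 22.6 Mb. With list sizes made equal, chosen after seeing the data, 55.3% and 55.1% were shared, the step was 239 kb and the tag ratio 1.48. The width and tag ratios stayed above 1 in 12 of 12 alternatives. No paired analysis was possible because no result comes from a test across libraries.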

Other observations

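Mouse chromosomes carry their centromere near the end where numbering starts. Cut into 5 equal parts between the first and last peak of any list, the numbered chromosomes had 1.33 shared SOX10 regions per Mb in the first part and 1.99 in the last. The ratio of the last to the first was 1.39 in replicate 1 and 1.43 in replicate 2, and 1.80 and 1.77 for H3K27ac. The last part held more shared regions than the first on 13 chromosomes and fewer on 5.

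Shared regions with more tags had nearer neighbours. The median distance to the nearest other shared region was 99.1 kb in the class with the fewest tags of 4 classes of equal size (21 to 44 tags over both replicates), then 81.0, 73.9 and 61.0 kb in the class with the most. The share with a neighbour within 10 kb rose only from 12.4% (10.5 to 14.5%) to 15.2% (13.2 to 17.5%), and these intervals overlap.

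Sequences without a place in a chromosome held 8 peaks in replicate 1 and 6 in replicate 2, of which 2 in each list were shared. The fullest had 542 tags in replicate 2 at a fold of 4.43, and neither list held a peak on Y or the mitochondrial genome.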
